A study of Homo sapiens with 6 samples.

Results

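The genes described here are FAH and the other enzymes of tyrosine breakdown, together with FAHD1, an enzyme that shares the FAH fold. They were chosen by name and by pathway, with earlier results of these data known: FAH, FAHD1, TAT, HPD, HGD, GSTZ1, GOT1 and GOT2. All 8 of 8 were measured, among 18372 genes tested. The cells were A375, an established human melanoma cell line, profiled 72 h after transfection. Cells given an siRNA against FAH (siFAH) were set against cells given a negative control siRNA, with 3 arrays each. Nothing besides the siRNA separated the groups in the labels, and the sources do not say which of the study's siRNAs against FAH was put on the arrays. The design note calls the replicates biological but does not say how the cultures were separated, so the p values measure the spread between these samples.

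Tyrosine is broken down in a short chain of steps that is known best in the liver. A transaminase, TAT in the liver or an aspartate transaminase (GOT1 in the cytosol, GOT2 in mitochondria), turns tyrosine into 4-hydroxyphenylpyruvate. HPD makes homogentisate from it, HGD opens the ring of homogentisate to maleylacetoacetate, and GSTZ1 turns that into fumarylacetoacetate. FAH, the last enzyme, splits fumarylacetoacetate into fumarate and acetoacetate. Inherited loss of FAH causes hereditary tyrosinemia, a disease of liver and kidney. The aspartate transaminases do most of their work elsewhere, in the malate-aspartate shuttle and in making aspartate.

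Each array gave 1 log2 signal per probe set, made by the authors' RMA, so that a difference of 1 is a doubling. Array medians lay between 5.003 and 5.038 in siFAH arrays and between 4.922 and 4.996 in control arrays. Correlations over probe sets were 0.995 to 0.997 within a group and 0.9881 to 0.9953 between groups. With limma, 1172 of 18372 genes were lower and 639 higher after FAH silencing at an adjusted p under 0.05, which made 64.7% of the calls lower. That share was 80.1% with arrays centred on their medians, 61.7% under quantile normalization and 56.2% under cyclic loess. Fewer genes were lower without control 2 (472), without control 3 (438), without siFAH 2 (440) or without siFAH 3 (390), and fewer were higher without the same arrays (267, 289, 271 and 267, in that order). Arrays carry no detection calls here. A gene is called dim when its mean signal is under 5.458, the median of all genes tested. As a level for RNA that is probably absent, 22 measured genes restricted to other tissues had a median signal of 4.102 and a 90th percentile of 4.736. The cell line's label was set against melanoma markers, of which 10 of 11 were measured. SOX10, a transcription factor of the melanocyte lineage, averaged 8.36 in siFAH arrays and 8.56 in control arrays, and S100B averaged 7.32 in siFAH arrays and 7.26 in control arrays. The pigment cell antigens PMEL and MLANA were dim, and both lay under the 90th percentile of the silent genes. All 10 measured hepatocyte markers were dim.

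FAH was lower after silencing, and so was GOT1, while the enzymes between them showed no change that passed the test. FAH had log2 signals of 4.92, 4.60 and 4.92 in siFAH arrays 1, 2 and 3, against 5.48, 5.59 and 5.68 in control arrays 1, 2 and 3. Every siFAH array was below every control array, with siFAH 2 the lowest, and the nearest arrays of the groups were 0.558 apart. The means were 4.81 ± 0.187 in siFAH arrays and 5.58 ± 0.0998 in control arrays (SD, n = 3 each), a log2 fold change of -0.77 (standard error 0.098, limma adjusted p = 0.002127). On the linear scale siFAH arrays held 58.7% of the control signal, with a 95% interval of 50.5% to 68.2%. This is the gene the siRNA targets, so its value checks the labels, and it goes the way they say. FAH was nevertheless a dim gene, and its lowest siFAH array was under the 90th percentile of the silent genes. Fewer cells with the transcript and less transcript per cell cannot be told apart in such bulk RNA. With each array left out in turn the log2 fold change ranged from -0.82 to -0.66, the weakest being without siFAH 2, and the adjusted p stayed between 0.00255 and 0.01312.

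**Figure D1:**
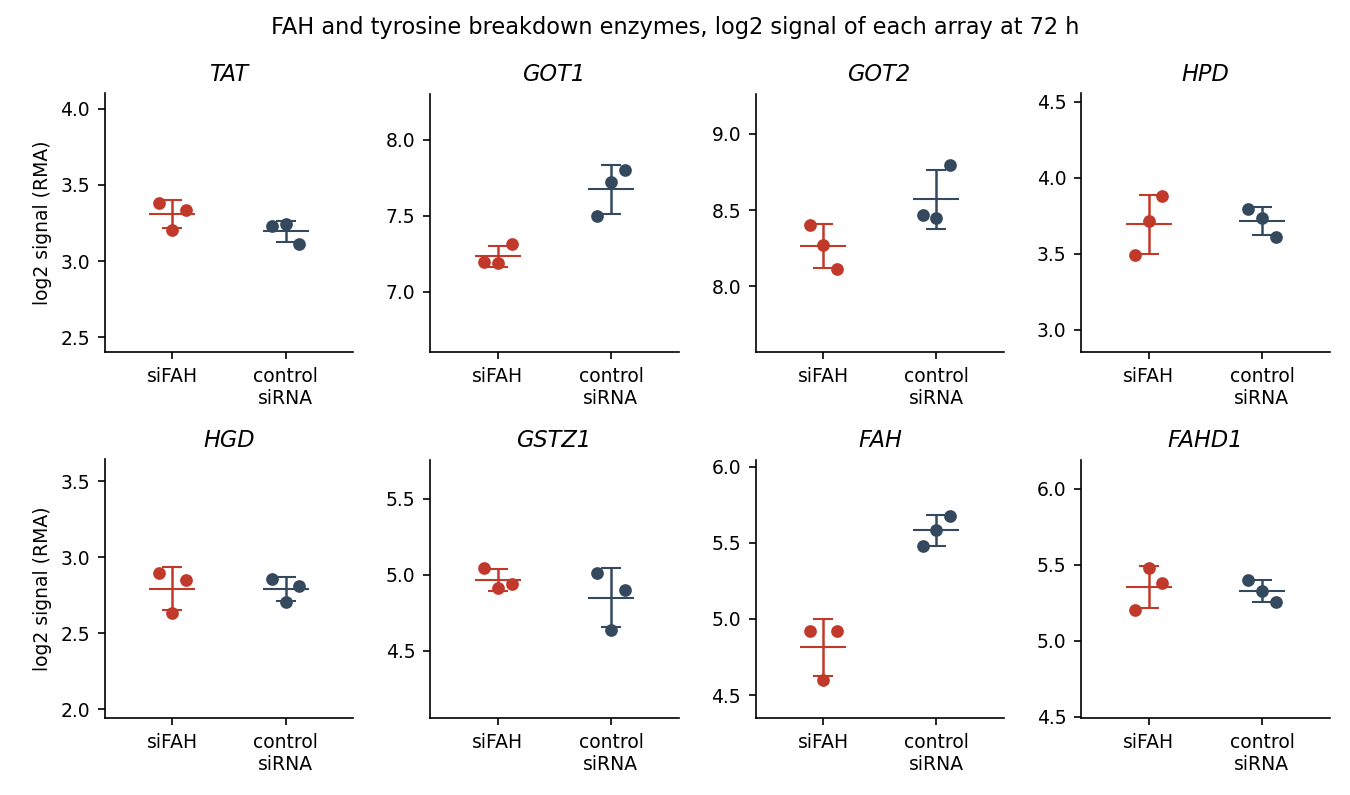
Log2 signal (RMA, vertical axis) of each of the 8 genes in the 3 siFAH arrays (red, left) and the 3 control siRNA arrays (dark blue, right) at 72 h, each panel on its own range. Points are arrays, the long bar is the mean and the short bars mark 1 SD. The groups stand apart in FAH, GOT1 and GOT2, and overlap in the other panels.

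FAHD1, an acylpyruvate hydrolase and oxaloacetate decarboxylase of mitochondria, did not follow FAH. Its log2 signals were 5.20, 5.48 and 5.38 in siFAH arrays, against 5.40, 5.33 and 5.26 in control arrays. The groups overlapped, and siFAH 1 was the lowest array of all 6 while siFAH 2 was the highest. The log2 fold change was 0.02 (standard error 0.083, 95% interval -0.16 to 0.21, limma adjusted p = 0.882). The change of FAH minus that of FAHD1 was -0.79, and the within-array difference, FAH minus FAHD1, was -0.28, -0.88 and -0.46 in siFAH arrays and 0.08, 0.26 and 0.42 in control arrays. Those differences did not overlap between the groups, and the two-sided exact permutation test gave p = 0.1, the smallest that 3 arrays against 3 can give. Of the other FAH-fold genes, FAHD2A averaged 5.85 in siFAH arrays and 6.07 in control arrays, with overlapping groups (log2 fold change -0.22, limma adjusted p = 0.1253), and FAHD2B was not analysed here. Neither measured relative of FAH passed the test.

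GOT1, the cytosolic aspartate transaminase, was the other gene called. Its signals were 7.20, 7.19 and 7.31 in siFAH arrays, against 7.50, 7.72 and 7.80 in control arrays. All siFAH arrays were below all control arrays, with control 1 the lowest of the controls and 0.182 above the highest siFAH array. The means were 7.23 ± 0.0698 in siFAH arrays and 7.67 ± 0.159 in control arrays (SD, n = 3 each), a log2 fold change of -0.44 (standard error 0.088, limma adjusted p = 0.01379), or 73.8% of the control signal (95% interval 64.5% to 84.4%). GOT1 was not dim. The direction held with each array left out, but the call did not: the adjusted p was 0.05836 without control 2 (log2 fold change -0.42), 0.05248 without control 3 (-0.37) and 0.05516 without siFAH 2 (-0.42). Without the other arrays it was 0.005377 to 0.03541.

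GOT2, the mitochondrial aspartate transaminase, moved the same way by less and missed the threshold. It had signals of 8.40, 8.27 and 8.11 in siFAH arrays, against 8.47, 8.45 and 8.79 in control arrays. The groups did not overlap, but only 0.0478 separated siFAH 1 from control 2, and control 3 stood above the other controls. The means were 8.26 ± 0.144 in siFAH arrays and 8.57 ± 0.194 in control arrays (SD, n = 3 each), a log2 fold change of -0.31 (standard error 0.106, 95% interval -0.54 to -0.07) with a limma adjusted p of 0.09495. When only the genes that are not dim were tested, the same difference had an adjusted p of 0.04482. Without control 3 the log2 fold change was -0.20.

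Whether GOT1 and GOT2 differ in their change was tested on the difference of their signals within each array. GOT1 minus GOT2 was -1.20, -1.08 and -0.80 in siFAH arrays and -0.97, -0.73 and -0.99 in control arrays. The 2 sets of values overlapped, and the difference between the changes, -0.13 with a standard error of 0.147, gave p = 0.4 in the two-sided exact permutation test. With 3 arrays against 3 that test cannot go below 0.1, so it shows neither that the cytosolic and the mitochondrial enzyme differ in their change nor that they are alike.

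The 4 remaining enzymes, from the first step of the chain to the step before FAH, were all dim and had overlapping groups. TAT, the liver's tyrosine transaminase, had signals of 3.38, 3.20 and 3.34 in siFAH arrays, against 3.23, 3.24 and 3.11 in control arrays. Its log2 fold change was 0.11 (standard error 0.075, 95% interval -0.05 to 0.28, limma adjusted p = 0.3691), with siFAH 1 and 3 above all controls and siFAH 2 among them. HPD, the dioxygenase that makes homogentisate, had 3.49, 3.71 and 3.88 in siFAH arrays, against 3.79, 3.74 and 3.61 in control arrays. The siFAH arrays held both the lowest and the highest value, and the log2 fold change was -0.02 (95% interval -0.24 to 0.20, limma adjusted p = 0.922).

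HGD, which opens the ring of homogentisate, had signals of 2.90, 2.63 and 2.85 in siFAH arrays, against 2.86, 2.71 and 2.81 in control arrays. The means were equal to 2 decimals, at 2.79 in siFAH arrays and 2.79 in control arrays, with a 95% interval of the log2 fold change from -0.18 to 0.19 (limma adjusted p = 0.9939). A second probe set named HGD held the same values in all 6 arrays and was counted once. GSTZ1, the isomerase that hands fumarylacetoacetate to FAH, had 5.05, 4.92 and 4.94 in siFAH arrays, against 5.01, 4.63 and 4.90 in control arrays. Control 2 was low and the other 5 arrays lay close together, giving a log2 fold change of 0.12 (standard error 0.096, 95% interval -0.09 to 0.33, limma adjusted p = 0.4746). TAT, HPD and HGD lay under the 90th percentile of the silent genes in the mean of all arrays. At that level a signal cannot be told apart from that of genes read as silent, so the overlap does not show that the transcript was unchanged. GSTZ1, FAH and FAHD1 were dim but above that percentile. The highest of the silent genes was at 5.208, above the means of GSTZ1 (4.908) and FAH (5.198) and under that of FAHD1 (5.342). How far background flattens the changes of these genes was not tested.

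In all, limma called 2 of 8 genes lower (FAH and GOT1) and 0 higher, beside 6.38% of all genes tested called lower and 3.48% called higher. FAH is itself the target and makes up part of that count. At limma's unadjusted p under 0.05, 3 were lower and 0 higher, and the share of all genes at that limit was not counted. SAM, the methods' test, judged at the methods' limits, also gave 3 lower and 0 higher, with GOT2 as the third (unadjusted p = 0.02754, adjusted p = 0.1731). Over all 18372 genes SAM gave 1429 lower and 855 higher. Lower calls were spread unevenly over signal levels: 11.2% of genes that were not dim were lower, against 1.52% of dim genes. GOT1, with GOT2, belongs to the genes that were not dim, and FAH to the dim ones. The groups did not overlap in 3 genes, all of them lower in siFAH arrays (FAH, GOT1 and GOT2), and over all genes 18.6% were lower and 13.4% higher without overlap. At the methods' limits, at least 1.2-fold with an unadjusted p under 0.05, applied here to limma's p, the same 3 genes were lower and 0 were higher. Of all genes, 7.83% were lower and 4.74% higher at those limits. The median log2 fold change was -0.0094 over the 8 genes and 0.0050 over all genes tested, with 4 of the 8 negative.

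When genes were ordered by mean signal and divided into 10 equal parts, the median change drifted downward with signal. It was 0.05 in the dimmest part, which holds HGD, 0.02 in the fifth, which holds FAH and FAHD1, -0.09 in the ninth, which holds GOT1, and -0.11 in the brightest, which holds GOT2. The middle 90% of genes in the part with FAH ranged from -0.26 to 0.26, so that FAH at -0.77 lay outside it. GOT1 at -0.44 lay just outside the range of its part, -0.40 to 0.27, and GOT2 at -0.31 lay inside the range of its own, -0.47 to 0.40. What part of the GOT1 and GOT2 values goes with this drift was not tested. Under quantile normalization and cyclic loess GOT1 stayed called at -0.38 (limma adjusted p = 0.01916) and -0.36 (limma adjusted p = 0.02665), and GOT2 was -0.24 and -0.22. Whether the drift remains under those scalings was not tested.

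**Figure D2:**
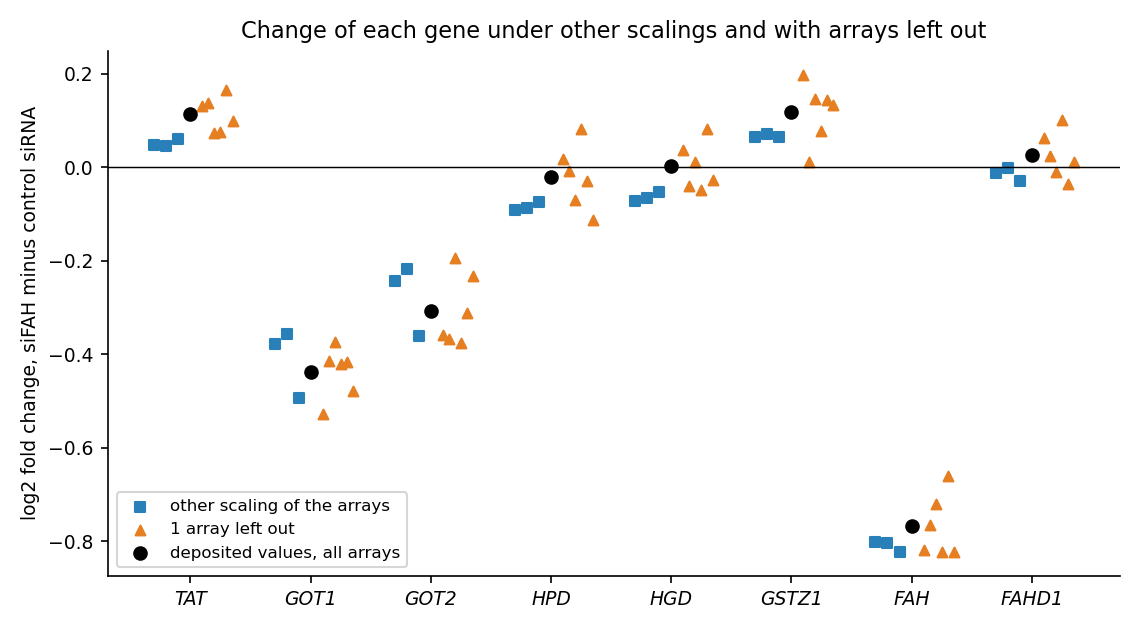
Log2 fold change (siFAH minus control siRNA, vertical axis) of each of the 8 genes with the deposited values and all arrays (black circles), under 3 other scalings of the arrays (blue squares, in the order quantile, cyclic loess and centred) and with 1 array left out (orange triangles). FAH, GOT1 and GOT2 stay below 0 throughout, FAH between -0.82 and -0.66, while FAHD1, HPD and HGD lie on both sides of 0.

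Of the 6 genes whose promoter was given, GOT1 was the one with a match to the C/EBP-ATF response element, TGATGNAA, the motif bound by ATF4 with a C/EBP partner in genes of amino acid supply. The search was chosen with the results known and covered 250 bases before to 50 bases after each start site in RefSeq (GRCh38.p14), on both strands. Those 6 genes were FAH, FAHD1, HPD, GSTZ1, GOT1 and GOT2, and the motif was in 3.62% of all 35116 promoters of that length. The match is shown in capitals, in the reverse orientation and with its first base 198 bases before the start site, in the GOT1 promoter at chr10:99430575-99430874 (minus strand). The core TGATGCAA, which this match has in full, was in 0.866% of all promoters. Beside it are 30-base windows of CHAC1 (chr15:40953251-40953280, plus strand) and ASNS (chr7:97872458-97872487, minus strand), whose signals are given further on, with their matches in capitals. They are shown for the form of the match and not as a sample of the lowered genes: SLC7A5 and MDH1, both lower, had none at any start site, and ASNS had it at 1 of 2 start sites and SLC3A2 at 1 of 3.
GOT1 promoter: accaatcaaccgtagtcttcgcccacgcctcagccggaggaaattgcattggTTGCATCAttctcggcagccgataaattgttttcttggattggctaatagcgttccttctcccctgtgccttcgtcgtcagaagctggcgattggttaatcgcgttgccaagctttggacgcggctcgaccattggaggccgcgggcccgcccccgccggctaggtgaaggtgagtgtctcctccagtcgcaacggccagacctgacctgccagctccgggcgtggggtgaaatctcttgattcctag
CHAC1 window: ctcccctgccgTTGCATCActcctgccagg
ASNS window: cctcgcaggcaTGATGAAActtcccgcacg
The GOT1 promoter also held 5 CCAAT boxes (CCAAT, either strand), 1 of which ends at the base before the match without overlapping it, and 34.6% of all promoters held at least 1. The FAH promoters had none. Their 2 start sites had 8 and 7 GC boxes (GGGCGG, either strand), and a GC content of 76.3% and 75.0%. At least 1 GC box was in 45.0% of all promoters. A match describes the sequence and shows no binding.

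The genes around tyrosine breakdown were described by lists drawn from the pathway, also with earlier results of these data known. Outside the 8 genes, 70 were measured, and 3 were higher and 7 lower, beside 3.48% and 6.38% of all genes. Their median log2 fold change was -0.02, and 54.3% of values were below 0, beside 48.6% over all genes. Genes that bring tyrosine into the cell and load it onto its tRNA were among those lower. SLC7A5, the light chain of the carrier that imports tyrosine, leucine and other large neutral amino acids, had signals of 8.05, 7.90 and 8.01 in siFAH arrays, against 8.70, 8.87 and 8.99 in control arrays. All siFAH arrays were below all control arrays (log2 fold change -0.87, standard error 0.085, limma adjusted p = 0.0007417). SLC3A2, its heavy chain, had 7.41, 7.27 and 7.27 in siFAH arrays, against 7.79, 7.93 and 8.11 in control arrays. It was lower too (log2 fold change -0.62, standard error 0.089, limma adjusted p = 0.003315). The other 4 of the 6 import genes were not called; SLC7A8 was at 0.13 and SLC43A1 at -0.11.

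Among the 5 tRNA synthetase genes for tyrosine and phenylalanine, YARS1, the cytosolic tyrosyl-tRNA synthetase, was lower. Its signals were 8.71, 8.73 and 8.75 in siFAH arrays, against 9.13, 9.21 and 9.39 in control arrays. The siFAH arrays lay within a narrow band below all controls (log2 fold change -0.51, standard error 0.079, limma adjusted p = 0.004671). In 4 of the 5 the groups did not overlap, with lower values in siFAH arrays, beside 18.6% of all genes. Of the 5, 1 was dim, and genes that were not dim were lower more often (11.2%) than all genes (6.38%). Among the genes not called, FARS2 had -0.36 and FARSB -0.24. The median of the list was -0.24. Under centred arrays 3 of the 5 were called lower, beside 1678 of 18372 genes. When only the genes that are not dim were tested, YARS2, the dim one, dropped out. Of the rest 3 were then called lower, beside 1733 of 9186 genes.

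Aspartate, the amino acid that GOT1 and GOT2 make and use, also touches the shuttle and the asparagine pathway. The malate-aspartate shuttle had 7 measured genes, GOT1 and GOT2 included, of which 2 were lower, 0 higher, and 6 had negative values (median -0.23). GOT1, counted above, is 1 of those 2. Of the 7 genes 0 were dim, and 11.2% of all genes that were not dim were lower. The second gene called was MDH1, the cytosolic malate dehydrogenase, with 7.78, 7.74 and 7.73 in siFAH arrays, against 7.97, 8.003 and 8.26 in control arrays. The groups did not overlap (log2 fold change -0.33, standard error 0.084, limma adjusted p = 0.0362). That call held without control 1 but was lost without each other array, with an adjusted p of 0.06873 without control 2, 0.0851 without control 3, 0.06089 without siFAH 1, 0.1005 without siFAH 2 and 0.1119 without siFAH 3. It was also lost under quantile normalization (0.05876) and cyclic loess (0.0709). MDH2, the mitochondrial form, was at 0.07 and the carrier SLC25A12 at -0.0065, both not called, while the carriers SLC25A11 and SLC25A13 were both at -0.23 and not called.

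ASNS, the asparagine synthetase, which consumes aspartate, had the largest drop of these lists. It had signals of 7.86, 7.68 and 7.75 in siFAH arrays, against 8.55, 8.68 and 8.78 in control arrays. The log2 fold change was -0.91 (standard error 0.080, limma adjusted p = 0.0005174), or 53.2% of the control signal. The other 5 measured genes of aspartate use were not called, and the median of the list was 0.01.

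The enzymes that handle the products of FAH showed few calls. FH, which hydrates the fumarate that FAH releases, was not analysed here, nor were SDHB and ADSS2. Of the 6 fumarate enzymes that were measured 0 were called by limma, SAM or the methods' t-test. At limma's unadjusted p under 0.05, 3 were lower and 0 higher, and the share of all genes at that limit was not counted. In 3 the groups did not overlap, with lower values in siFAH arrays, beside 18.6% of all genes. Of the 6, 1 was dim, and genes that were not dim were called lower more often (11.2%) than all genes (6.38%). SDHA, the catalytic subunit of succinate dehydrogenase, averaged 8.39 in siFAH arrays and 8.63 in control arrays (log2 fold change -0.24, limma adjusted p = 0.07049). Under centred arrays it was at -0.29 (limma adjusted p = 0.04529), under quantile normalization at -0.18 (0.1419) and under cyclic loess at -0.15 (0.1994). Limma's adjusted p was 0.02765 without dim genes and 0.03779 without genes under the 90th percentile of the silent genes. It was 0.03496 for eBayes with trend and robust, 0.02928 with array weights and 0.145 with the replicate number as a block. With 1 array left out it ranged from 0.05895 to 0.2326. Of 7 measured genes of acetoacetate and ketone bodies 1 was lower, beside 6.38% of all genes. This was ACAT2, the cytosolic thiolase that joins acetyl groups for sterol synthesis. Its signals were 6.77, 6.81 and 6.66 in siFAH arrays, against 7.06, 7.19 and 7.29 in control arrays. No array of one group reached the other (log2 fold change -0.43, standard error 0.079, limma adjusted p = 0.009558).

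Upstream of tyrosine, 0 of 7 measured genes of phenylalanine hydroxylation and its cofactor tetrahydrobiopterin were called by limma, with a median of -0.02. At limma's unadjusted p under 0.05, 1 was higher and 0 lower, a limit at which all genes were not counted. By SAM 1 was higher, beside 855 of 18372 genes. PTS, which makes an intermediate of the cofactor, came nearest, with 7.35, 7.39 and 7.55 in siFAH arrays, against 7.30, 7.07 and 7.03 in control arrays. All siFAH arrays were above all control arrays (log2 fold change 0.30, limma adjusted p = 0.05953). Limma's adjusted p was 0.04094 under quantile normalization, 0.04256 under cyclic loess and 0.08175 under centred arrays. It was 0.024 without dim genes and 0.03213 without genes under the 90th percentile of the silent genes. For eBayes with trend and robust it was 0.03285, with array weights 0.01868 and with the replicate number as a block 0.1227. With 1 array left out it ranged from 0.0251 to 0.1986. Of 6 other enzymes of tyrosine and phenylpyruvate 1 was higher, beside 3.48% of all genes. This was DDT, whose protein keeps a tautomerase fold related to that of MIF. It had 9.75, 9.83 and 9.85 in siFAH arrays, against 9.65, 9.43 and 9.44 in control arrays (log2 fold change 0.31, standard error 0.079, limma adjusted p = 0.03694). Its groups stood apart, but a near-identical copy, DDTL, may share its probes. The call held without control 1 alone, and without each other array the adjusted p was 0.1248 (control 2), 0.1132 (control 3), 0.05118 (siFAH 1), 0.1065 (siFAH 2) and 0.1218 (siFAH 3). HPDL, a relative of HPD, was at 0.12 and not called. AADAT, with the largest change among the uncalled genes of this list, averaged 6.75 in siFAH arrays and 6.97 in control arrays. Its groups did not overlap (log2 fold change -0.22, limma adjusted p = 0.09925).

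Genes of pigment and catechols, which include monoamine oxidases beside enzymes of synthesis, were read at low signal: all 8 measured genes were dim. TYR, the tyrosinase that starts melanin synthesis, averaged 2.90 in siFAH arrays and 2.95 in control arrays. MAOB, a monoamine oxidase of the outer mitochondrial membrane, was the one gene of the list called, with 5.32, 5.36 and 5.33 in siFAH arrays, against 4.41, 4.22 and 4.52 in control arrays. The siFAH values were nearly equal to each other, and all control values were under the 90th percentile of the silent genes. Against that percentile the siFAH mean of 5.34 was at least 1.52-fold higher (measured control mean 4.38, limma adjusted p = 0.0005174 for the measured signals). The median of the list was 0.04.

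**Figure D3:**
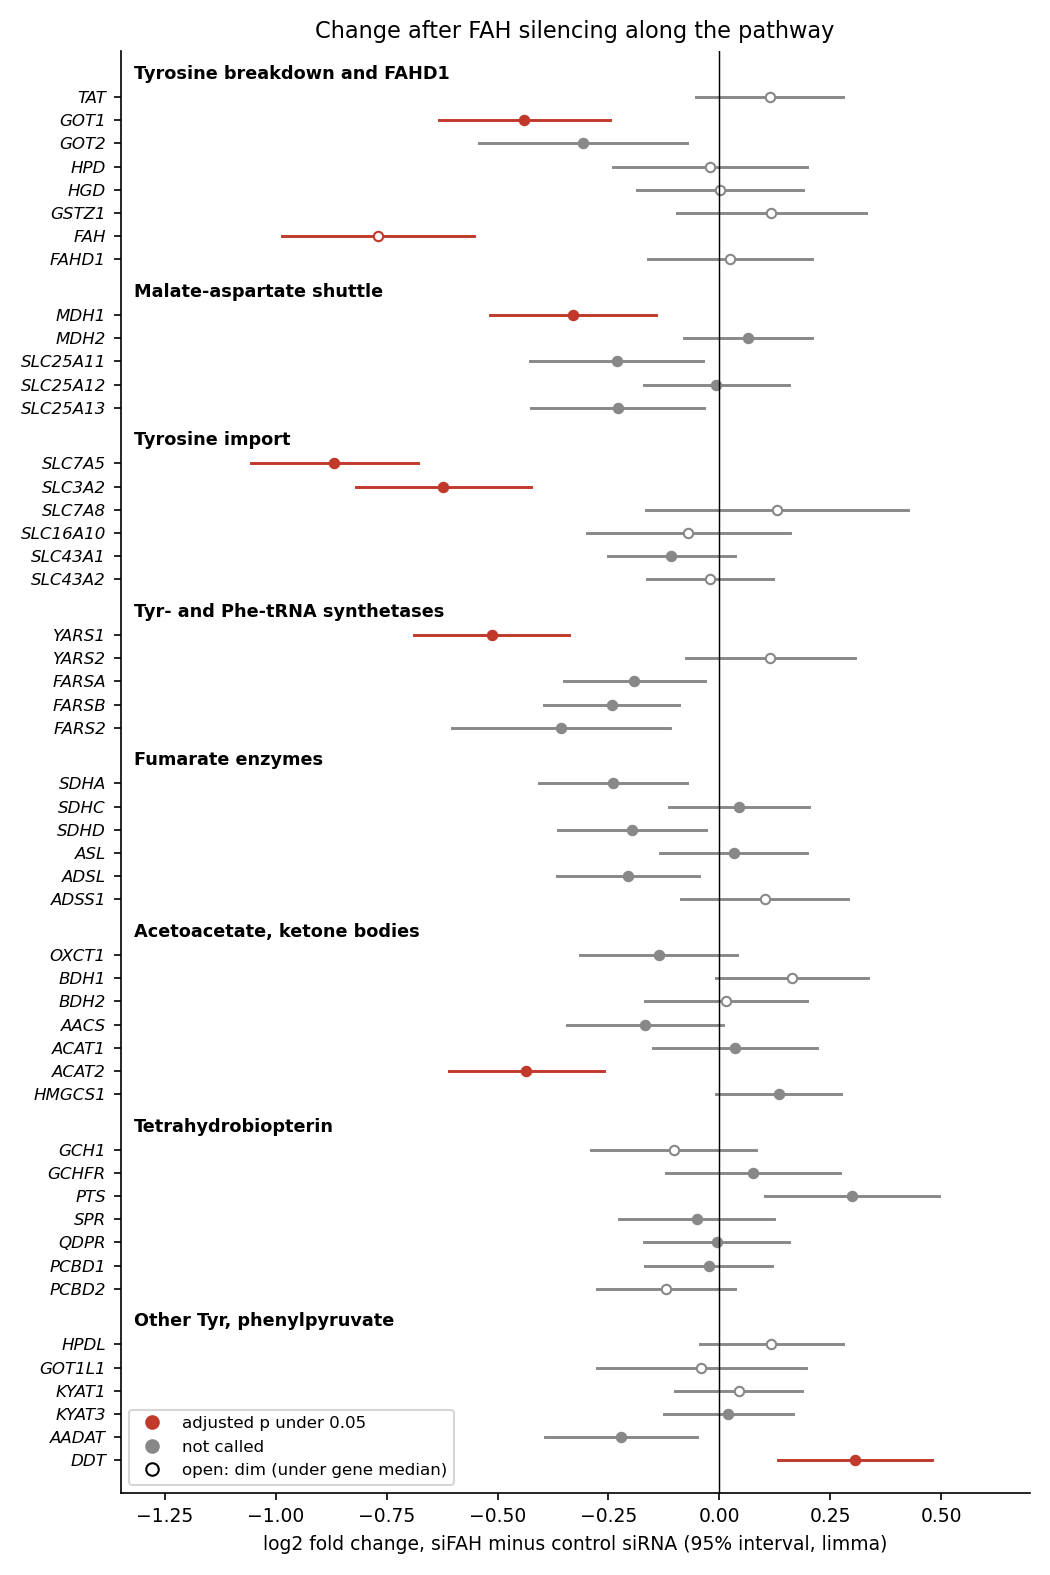
Log2 fold change (horizontal axis, control siRNA taken from siFAH) with its 95% interval from limma, for the 8 genes and for measured genes of the neighbouring pathways, grouped by pathway. Red marks an adjusted p under 0.05, grey the rest, and open circles are dim genes. FAH at -0.77 and GOT1 at -0.44 are the called genes of tyrosine breakdown, beside SLC7A5, SLC3A2, YARS1, MDH1 and ACAT2 on the lower side and DDT on the higher side.

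The genes whose signal followed FAH most closely over the 6 arrays were ranked among all genes tested by Pearson's r, as a description with no test. The 5 most alike were APOBEC3B (r = 0.9985), CHAC1 (0.996), SEPTIN2 (0.9932), PPP4R1 (0.9931) and PELI2 (0.991). The arrays share the group difference, and within groups the r of APOBEC3B was 0.9864 and that of CHAC1 0.9641. APOBEC3B, a cytidine deaminase with close paralogs that may share its probes, had 7.75, 7.54 and 7.73 in siFAH arrays, against 8.12, 8.21 and 8.23 in control arrays. Like FAH it was lowest in siFAH 2 (log2 fold change -0.51, standard error 0.077, limma adjusted p = 0.004276). CHAC1, an enzyme that degrades glutathione, had 6.04, 5.81 and 6.01 in siFAH arrays, against 6.57, 6.71 and 6.80 in control arrays. It too was lowest in siFAH 2 (log2 fold change -0.74, standard error 0.087, limma adjusted p = 0.001492). SEPTIN2, PPP4R1 and PELI2 were lowest in siFAH 2 as well, with log2 fold changes of -0.15, -0.24 and -0.14 that were not called. These genes were picked for following FAH over the same 6 arrays. Their low siFAH 2 and high r within groups come with that choice and are no separate result.

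The 5 genes that mirrored FAH were MARCKS (r = -0.9949), TSHZ1 (-0.9938), RNF44 (-0.9937), SERP2 (-0.9936) and LINC01152 (-0.9935). All were called higher, but SERP2 and LINC01152 lay under the 90th percentile of the silent genes in the mean of all arrays. RNF44, a RING finger gene, had 6.75, 6.90 and 6.74 in siFAH arrays, against 6.35, 6.24 and 6.15 in control arrays (log2 fold change 0.55, standard error 0.078, limma adjusted p = 0.003315). MARCKS, a substrate of protein kinase C, had 7.43, 7.57 and 7.47 in siFAH arrays, against 7.23, 7.19 and 7.13 in control arrays (log2 fold change 0.30, standard error 0.070, limma adjusted p = 0.02479). Both were highest in siFAH 2, where FAH was lowest, which again comes with the way they were picked.

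Among the 8 genes themselves, FAH followed GOT1 with r = 0.945 over the 6 arrays and 0.616 within groups. With GOT2 the values were 0.762 and 0.276, and between GOT1 and GOT2 they were 0.753 and 0.285. FAH and FAHD1 ran opposite within groups (r = -0.814, and -0.374 over the 6 arrays): siFAH 2 had the lowest FAH and the highest FAHD1 signal of its group. With 3 arrays per group and shared arrays behind every pair, these values carry no test.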

How the data were processed

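RNA of the 6 samples was read on Affymetrix Human Gene 1.0 ST arrays. The authors made these log2 values with RMA under default settings and global scaling, and were used as deposited; no version is given in the sources used here. The sources differ on the RNA and labelling kits. Of 28829 probe sets, 19291 carry 1 gene symbol, 1735 several and 7803 none in the platform table, and only those with 1 symbol were named. Symbols were matched by gene ID (19260 matched, 0 changed). The probe set with the highest mean signal stood for its gene, which left 18372 genes.

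For each gene the control siRNA mean was subtracted from the siFAH mean and tested two-sided by limma 3.58.1 (lmFit, eBayes) under R 4.3.3. The fit had 4 residual degrees of freedom and gained 6.52 from the prior. Genes were called where the p, adjusted after Benjamini and Hochberg over all genes tested, was under 0.05. Differences between changes were tested by exact permutation over arrays. Arrays have no read depth, and their number limits the precision. Alternatives were other scalings, filters on dim genes, array weights, eBayes with trend and robust, the methods' t-test, SAM with 20 arrangements and a fudge constant of 0.113 (judged at 1.2-fold and an unadjusted p under 0.05), other choices of probe set, the replicate number as a block, and each array left out. The p by SAM was taken against the permuted statistics of all genes pooled. Scripts were tested on simulated data first.

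The genes and the lists around them were chosen with earlier results of these data known. Named genes are the 8 in every array, in each pathway list the called genes and up to 2 with the largest change among the rest, and the 5 genes most like and most unlike FAH. MDH2, SLC25A12, SLC25A13, TYR and the markers SOX10, S100B and PMEL were named after their values were seen. Promoters come from RefSeq (GRCh38.p14). Plots used Python 3.11.15 with matplotlib 3.10.9.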

Additional observations from a re-analysis of the deposited data

How the results depend on the processing

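FAH kept its direction under every alternative that held it, and its call in all but the methods' t-test, where the adjusted p was 0.1175 at a log2 fold change of -0.77. SAM was judged at the methods' limits of 1.2-fold and an unadjusted p under 0.05, which FAH passed. Its p by SAM was 0.0004899, taken against the permuted statistics of all genes pooled, while its adjusted p by SAM was 0.1007. The two-sided exact permutation test on FAH alone gave p = 0.1, the smallest possible. GOT2 was called by SAM at those limits and by limma without dim genes. FAH, a dim gene, could not be tested when dim genes were left out. By that t-test 0 of the 8 genes were called lower (FAH and GOT1 passed at an unadjusted p under 0.05, and limma called 2), and of the surrounding genes 0 were called lower and 0 higher, with 8 lower and 6 higher over all genes. With 1 array left out, 1 to 2 of the 8 were lower, the surrounding genes gave 2 to 5 higher, and all genes gave 390 to 1192 lower and 267 to 653 higher. The median change of the 8 genes was -0.0826 under quantile normalization, -0.37 without dim genes and -0.31 without genes under the silent level, since both filters leave fewer of the 8. Surrounding genes came to 14 lower without dim genes, beside 1733 of 9186 genes. They came to 5 higher without genes under the silent level, beside 764 of 11878 genes. Both filters leave fewer of the surrounding genes too. With array weights 11 were lower and 7 higher, beside 1743 lower and 1170 higher of 18372 genes. Small values changed sign: FAHD1 to -0.0118 (quantile), -0.0028 (cyclic loess) and -0.0293 (centred), and HGD to -0.0732, -0.0651 and -0.0525. With arrays left out FAHD1 ranged from -0.0363 to 0.10, HGD from -0.0490 to 0.0812, HPD from -0.11 to 0.0816 and DDC from -0.15 to 0.0070. Replicate numbers did not pair the samples, since deviations of same-numbered arrays correlated at -0.155, -0.0891 and -0.274. With the replicate block FAH had an adjusted p of 0.006003, GOT1 0.02505 and GOT2 0.1698, and all genes gave 462 lower and 299 higher. Signal over background limits TAT, HPD and HGD, and the means of GSTZ1 and FAH were also under the highest silent gene.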

Other observations

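GSTZ1 belongs to the glutathione transferases. A list of 8 others (GSTO1, GSTO2, GSTP1, GSTK1, GSTA4, MGST1, MGST2 and MGST3), which is not the whole family, was measured in full. Of these, 1 was higher and 0 were lower by limma, beside 3.48% and 6.38% of all genes. At limma's unadjusted p under 0.05, 3 were higher and 0 lower. The share of all genes at that limit was not counted, so those 3 have no background to be judged by. The median log2 fold change was 0.14, beside 0.0050 over all genes. MGST2, a microsomal transferase that conjugates glutathione to leukotriene A4 and other lipids, had signals of 6.99, 7.07 and 7.02 in siFAH arrays, against 6.55, 6.45 and 6.44 in control arrays. All siFAH arrays were above all control arrays (log2 fold change 0.54, standard error 0.067, limma adjusted p = 0.001934). GSTA4, which acts on products of lipid oxidation, was dim and averaged 5.28 in siFAH arrays and 5.03 in control arrays, with an adjusted p of 0.05006.

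The genes beside FAH on chromosome 15 were looked at because they share its stretch of the genome. Of 5 measured neighbours 1 was lower and 0 higher, beside 6.38% and 3.48% of all genes. CEMIP, which takes part in breaking down hyaluronan, had 7.27, 7.32 and 6.97 in siFAH arrays, against 7.71, 7.75 and 7.95 in control arrays. Its groups did not overlap (log2 fold change -0.61, standard error 0.102, limma adjusted p = 0.006352). ZFAND6, the next measured gene before FAH, was at -0.11 and ARNT2, the next measured gene after it, at -0.25, and neither was called.

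Of 10 measured melanoma markers 2 were lower and 0 higher, beside 6.38% and 3.48% of all genes. CSPG4, a surface proteoglycan, averaged 7.37 in siFAH arrays and 8.04 in control arrays (limma adjusted p = 0.001441), and MCAM, an adhesion molecule, averaged 7.63 in siFAH arrays and 8.20 in control arrays (limma adjusted p = 0.006421). Of 12 measured markers of keratinocytes, immune, endothelial and fibroblast cells 11 were dim. Of the 12, 1 was higher and 0 were lower, beside 3.48% and 6.38% of all genes. The one called, KRT10, had a log2 fold change of 0.45 (limma adjusted p = 0.0213), and its adjusted p was 0.07021 without control 2, 0.07961 without control 3, 0.07781 without siFAH 2 and 0.08318 without siFAH 3. Summed log2 signals of the 10 hepatocyte markers ranged from 39.0 to 39.7 in siFAH arrays and from 38.6 to 39.4 in control arrays.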
